A study of Arabidopsis thaliana with 8 samples.

Results

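Serine carboxypeptidase-like (SCPL) and beta-glucosidase (BGLU) genes were compared between developing seeds of ttg1, a mutant of Arabidopsis thaliana, and those of Landsberg erecta (Ler), the wild type used here. The members are the probe sets whose platform annotation names a single gene with a numbered SCPL or BGLU symbol, without BGLU44 and BGLU45. This rule gave 47 of the 22746 probe sets tested, 29 for SCPL genes and 18 for BGLU genes, each for a different gene. Seeds with embryos at globular to walking-stick stages were taken out of the siliques, and total RNA was hybridised to Affymetrix ATH1 arrays, with 4 biological replicates of ttg1 and 4 of Ler on 1 array each. No treatment is given for either genotype. The ttg1 plants are labelled only as a mutant, and the source labels add a running number to both genotypes without saying what it means. The mutated gene, TTG1, encodes a WD40-repeat protein that works with MYB and bHLH transcription factors in seed coat pigment and mucilage formation.

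SCPL proteins belong to the serine carboxypeptidase family, whose classical members remove amino acids from the end of a protein chain in the vacuole. Some plant members have become acyltransferases instead, among them SNG1 and SNG2, which move sinapic acid from a glucose ester to malate or choline, the choline product being a store of the Arabidopsis seed. BGLU proteins are glycoside hydrolases that cleave glucose from small molecules such as glucosinolates, hormone conjugates, coumarins and the glucosides of lignin precursors, and a few of them add glucose to flavonoids. Both families thus include enzymes that act on glucose conjugates.

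The families were covered in part. The RefSeq gene table lists 51 SCPL genes by symbol or synonym, of which 29 were members, 3 shared a probe set with another gene and 19 had no named probe set. It lists 47 BGLU genes, of which 18 were members, 4 had a probe set of their own under another name or were set aside by the rule, 2 shared a probe set and 23 had none. SNG1, SNG2, the glucosinolate-cleaving TGG1, TGG2 and PEN2, and the flavonoid glucosyltransferases BGLU6 and BGLU10 belonged to the genes without one, and their transcripts were not analysed here.

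Deposited values are log2, and the median of every probe set across the 8 arrays had been subtracted. A value of 0 therefore marks the middle of the 8 arrays, and no value gives an absolute level. Changes are ttg1 minus Ler, with limma's moderated standard error (SE) and 4 arrays per genotype. The p-values were adjusted by the Benjamini-Hochberg method over all probe sets, and a gene passed below 0.05. The labels call the samples biological replicates without saying how the plants were grown, so the p-values cover no more than the spread of these samples, which may be technical. In RNA from whole seeds, fewer cells of a type and less RNA per cell cannot be told apart.

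The array medians lay between -0.0126 and 0.0279. The ttg1 replicate 4 array stood apart with the largest within-group deviation, an SD over probe sets of 0.245, against 0.157 to 0.184 in the other ttg1 arrays and 0.115 to 0.173 in Ler. TTG1 had no named probe set, so the genotype labels could only be set against known targets. DFR, a late enzyme of seed coat pigment synthesis, had values between -3.90 and -3.24 in ttg1 and between 3.24 and 3.53 in Ler. Over 6 pairs of control probe sets, the 3' minus 5' difference averaged 0.0073 ± 0.070 for ttg1 arrays and -0.043 ± 0.042 for Ler arrays (SD, n = 4 per genotype; exact two-sided permutation test, p = 0.286). Of the seed coat markers, 3 of 12 were measured by name, and their mean lay between -1.65 and -1.26 in ttg1 and between 1.09 and 1.38 in Ler. For the 2 of 8 silique wall markers measured it lay between -0.30 and 0.20 in ttg1 and between -0.23 and 0.095 in Ler. The 3 of 9 endosperm markers spanned -0.069 to 0.25 in ttg1 and -0.046 to 0.0098 in Ler. The 2 of 6 photosynthesis markers spanned -0.28 to 0.73 in ttg1 and -0.25 to -0.0046 in Ler, and the 2 of 11 seed filling markers -0.67 to 1.34 in ttg1 and -0.56 to 1.21 in Ler. Of these 5 list means, that of the seed coat markers did not overlap between genotypes and the other 4 did. BAN, of pigment synthesis, and the seed coat peroxidase PER36 (log2 changes of -6.43 and -1.39) carried the seed coat mean. SBT1.7, the remaining seed coat marker measured, overlapped between genotypes (log2 change -0.11 ± 0.11, SE, adjusted p = 0.606 in limma). On the other 4 lists only the silique wall gene YAB3 was higher on every ttg1 array (log2 change 0.67 ± 0.23, SE, adjusted p = 0.116 in limma). The other silique wall gene measured, ALC, changed in the opposite direction with overlapping genotypes (log2 change -0.47 ± 0.21, SE, adjusted p = 0.215 in limma). The list means of the photosynthesis and endosperm markers were highest in ttg1 replicate 4, and that of the seed filling markers in replicate 4 of both genotypes. Not every gene followed its list mean. The endosperm marker AGL62 was highest in ttg1 replicate 3 (0.18, against 0.014 in ttg1 replicate 4). Among Ler arrays the seed filling marker VCL2 was highest in replicate 2 (0.46, against 0.15 in replicate 4). The part of these differences in the results on the 2 enzyme families was not tested.

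Of the 47 SCPL and BGLU members, 44 did not pass the test between ttg1 and Ler seeds. Centred values do not show which of them stood above background. In limma, scpl44 was higher in ttg1 by about 2-fold, and scpl35 and BGLU25 were lower by 1.34-fold and 1.64-fold. That is 3 of 47 members, or 6.38%, against 5.72% of all probe sets, so the share lay near the background. By family, 1 of 29 SCPL members was higher and 1 was lower. No BGLU member was higher and 1 of 18 was lower in limma. Of all probe sets, 1.76% were higher and 3.96% lower. In limma, 10 of 47 members had an unadjusted p under 0.05, against 23% of all probe sets. Of these, 7 had a positive change, against 10.9% of all probe sets, and 3 a negative one, against 12.1%. By family they were 8 of 29 SCPL members (27.6%), 6 positive and 2 negative. For BGLU they were 2 of 18 members (11.1%), 1 positive and 1 negative. The 95% interval of the change stayed between -1 and 1 on the log2 scale for 45 of 47 members, and for 96% of all probe sets. The exceptions were scpl44 and BGLU25. It stayed between -0.5 and 0.5 for 18 of 29 SCPL and 13 of 18 BGLU members, and for 71.9% of all probe sets.

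**Figure D1:**
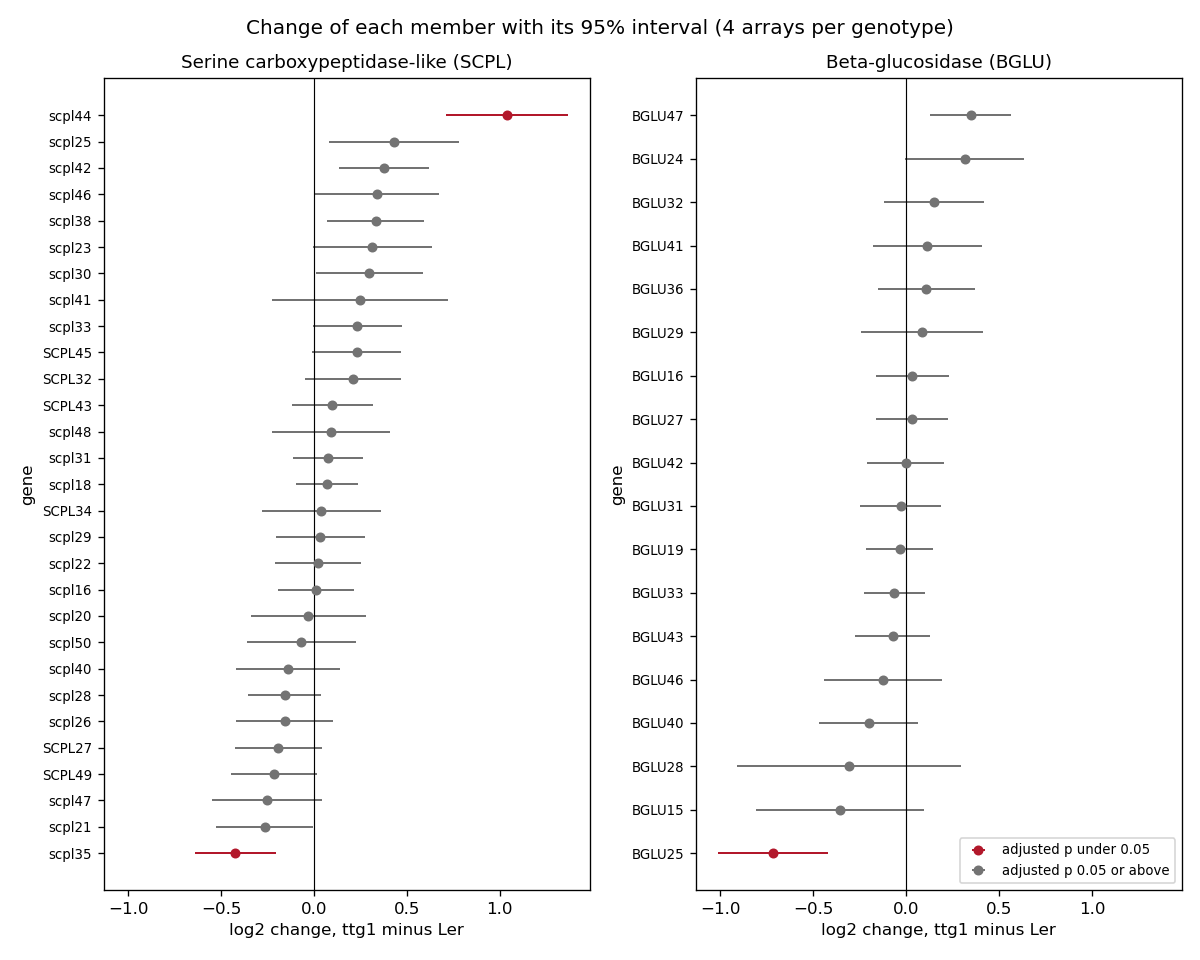
Each point is the log2 change of 1 gene, ttg1 minus Ler, with limma's 95% interval (4 arrays per genotype), for SCPL genes on the left and BGLU genes on the right. Red points passed the adjusted p of 0.05. scpl44 at 1.04 stands far to the right of the other SCPL genes, which end at 0.43, and BGLU25 at -0.72 lies lowest of the BGLU genes.

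The SCPL genes come first. The transcript of scpl44 (AT1G43780), a carboxypeptidase-like protein for which no role is given here, had, in the order of replicates 1 to 4, 0.60, 0.43, 0.26 and 0.68 in ttg1, against -0.89, -0.68, -0.36 and -0.26 in Ler. The same order is kept for all genes. All 4 ttg1 arrays were above all 4 Ler arrays. Where the groups do not overlap, the centring alone places 0 between them. The log2 change was 1.04 ± 0.15 (SE), a 2.05-fold rise with a 95% interval of 0.71 to 1.37 on the log2 scale, and the adjusted p in limma was 0.00202. In 8 runs that each left out 1 array the change lay between 0.92 and 1.14 and passed the test each time. Without replicate 4 of both genotypes, a setting added after seeing the data, it was 1.07 (adjusted p = 0.00258 in limma).

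The transcript of scpl35 (AT5G08260) was lower in ttg1. It had -0.26, -0.19, -0.10 and -0.52 in ttg1 seeds and 0.24, 0.16, 0.10 and 0.12 in Ler seeds. The groups did not overlap, and ttg1 replicate 4 was the lowest array. The log2 change was -0.42 ± 0.10 (SE), with an adjusted p of 0.0324 in limma. The call was lost in 5 of 8 runs that left out 1 array. The adjusted p in limma was 0.0617 without ttg1 replicate 1 and 0.0966, 0.101, 0.0745 and 0.0584 without Ler replicates 1, 2, 3 and 4. It was 0.0421 without ttg1 replicate 4. Without replicate 4 of both genotypes it was 0.0648, with a change of -0.35.

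The other large SCPL differences did not pass. For scpl25 (AT3G02110) the values were 0.0039, 0.12, 0.0092 and 0.49 in ttg1 and -0.56, -0.51, -0.0039 and -0.023 in Ler. The groups touched near 0 without overlapping, 1 ttg1 array and 2 Ler arrays carried most of the distance, and the log2 change of 0.43 ± 0.16 (SE) had an adjusted p of 0.14 in limma. For scpl42 (AT5G42240) the values were 0.072, 0.42, 0.25 and 0.046 in ttg1 and -0.046, -0.15, -0.39 and -0.15 in Ler. Here too the groups did not overlap, and the log2 change was 0.38 ± 0.11 (SE, adjusted p = 0.0717 in limma). With array weights, which gave ttg1 replicate 4 the smallest weight (0.348), the change of scpl42 was 0.45 and passed (adjusted p = 0.0178 in limma); it passed in none of the other 14 refits, where the adjusted p reached 0.177.

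At the lower end, scpl21 (AT3G25420) had 0.060, -0.31, -0.0054 and -0.37 in ttg1 and 0.17, 0.27, 0.0054 and -0.013 in Ler. The groups overlapped, and the log2 change of -0.26 ± 0.12 (SE) had an adjusted p of 0.211 in limma. Values of scpl47 (AT5G22980) were -0.11, -0.0066, 0.059 and -0.49 in ttg1 and 0.37, 0.083, 0.0030 and -0.0030 in Ler. Apart from ttg1 replicate 4 and Ler replicate 1, its arrays lay close to 0, and the log2 change was -0.25 ± 0.13 (SE, adjusted p = 0.284 in limma).

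**Figure D2:**
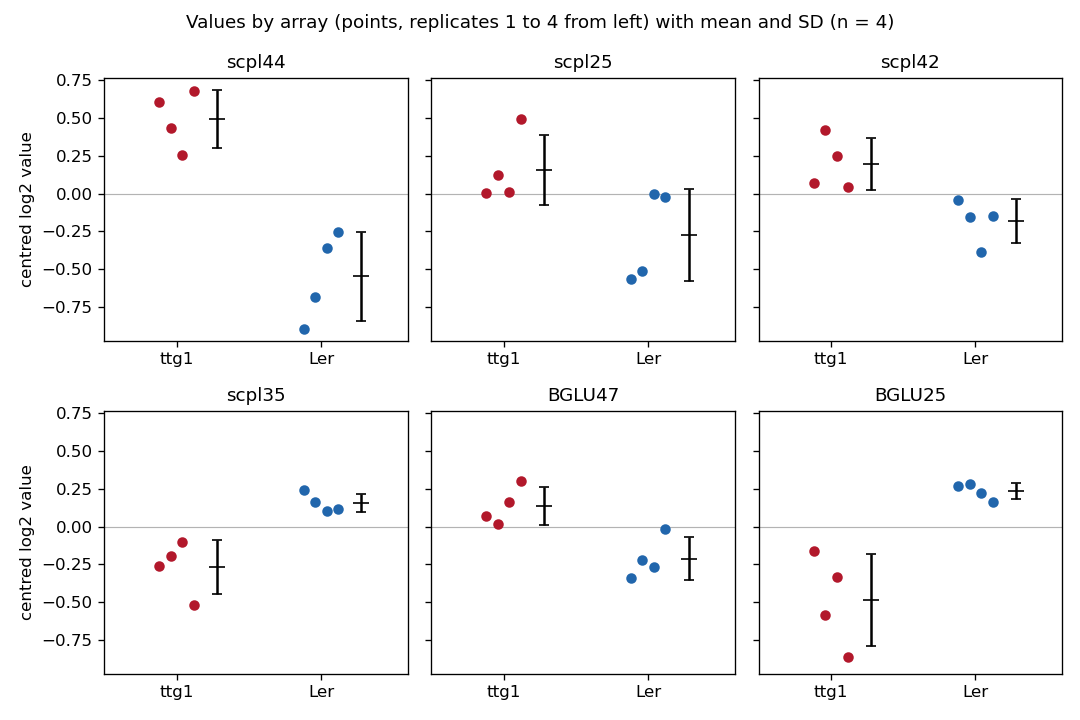
Centred log2 values of 6 genes on each array, with ttg1 in red on the left and Ler in blue on the right of each panel, points from left to right being replicates 1 to 4, and the black bar giving the mean and SD (n = 4). The 6 genes were picked from the members with large changes, and scpl25, scpl42 and BGLU47 did not pass in the unweighted limma fit without covariates. In each panel the 2 genotypes do not overlap, as in 9 of 47 members and 14.8% of all probe sets. The gap is widest in scpl44 (0.26 as the lowest ttg1 value, -0.26 as the highest Ler value) and almost closed in scpl25 (0.0039 and -0.0039).

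Among carboxypeptidases of the vacuole, SCPL49 (AT3G10410) is the carboxypeptidase Y of Arabidopsis, and scpl47 and scpl48 are its relatives. SCPL49 had -0.030, -0.013, -0.049 and -0.42 in ttg1 and 0.12, 0.17, 0.032 and 0.013 in Ler. The genotypes did not overlap, yet 3 of the 4 ttg1 arrays were within 0.05 of 0, and the log2 change of -0.21 ± 0.10 (SE) did not pass (adjusted p = 0.252 in limma). scpl48 (AT3G45010) had -0.050, 0.20, 0.23 and -0.33 in ttg1 and 0.050, 0.15, -0.27 and -0.25 in Ler, with a log2 change of 0.091 ± 0.14 (SE). In all 3 of these genes ttg1 replicate 4 was the lowest array, and none passed the test.

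Of scpl41 (AT5G42230), known from work on membrane lipid metabolism, the spread within ttg1 exceeded the difference between genotypes. It had 0.12, 0.14, 0.84 and -0.45 in ttg1 and -0.045, 0.045, -0.24 and -0.10 in Ler. The ttg1 arrays held both the highest and the lowest of the 8 values, and the log2 change of 0.25 ± 0.22 (SE) had a 95% interval from -0.23 to 0.72.

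Counting all SCPL members that did not pass, 27 in number, 18 had a log2 change above 0 and 9 below 0, between -0.26 and 0.43, with adjusted p-values in limma from 0.0717 to 0.954. On the positive side scpl46 (0.34 ± 0.15), scpl38 (0.33 ± 0.12), scpl23 (0.31 ± 0.15) and scpl30 (0.30 ± 0.13, SE) followed scpl25 and scpl42. In these 4 genes the value in ttg1 replicate 4 was 0.46, 0.52, 0.44 and 0.49, the highest of the 8 arrays in scpl46, scpl38 and scpl23; in scpl30 ttg1 replicate 1 was highest at 0.53. Smaller positive changes were those of scpl33 (0.23), SCPL45 (0.23), SCPL32 (0.21) and SCPL43 (0.10). The changes of scpl31, scpl18, SCPL34, scpl29, scpl22, scpl16, scpl20 and scpl50 lay between -0.068 and 0.077. Besides those of scpl21, scpl47 and SCPL49, the larger negative changes were those of scpl40 (-0.14), scpl28 and scpl26 (-0.16 each) and SCPL27 (-0.19).

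Among the BGLU genes, BGLU25 (AT3G03640) was the only member past the test in the unweighted limma fit without covariates. It belongs to the group of beta-glucosidases with a signal for retention in the endoplasmic reticulum, which also holds PYK10, the main protein of ER bodies. It had -0.16, -0.58, -0.33 and -0.86 in ttg1 seeds and 0.27, 0.28, 0.22 and 0.16 in Ler seeds. The Ler arrays were close together and all 4 ttg1 arrays were below them. The log2 change was -0.72 ± 0.13 (SE), with a 95% interval from -1.01 to -0.42 and an adjusted p of 0.0112 in limma. Leaving out 1 array at a time gave changes between -0.82 and -0.59 and adjusted p-values in limma between 0.00492 and 0.0454. Without replicate 4 of both genotypes the change was -0.61 (adjusted p = 0.0159 in limma).

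Other genes of the ER-retained group did not pass. BGLU24 (AT5G28510) had 0.61, -0.14, 0.14 and 0.39 in ttg1 and -0.20, 0.067, -0.069 and -0.067 in Ler. The ttg1 arrays were spread over a wider range than the Ler arrays and overlapped them, and the log2 change was 0.31 ± 0.14 (SE, adjusted p = 0.225 in limma). BGLU19 (AT3G21370) stayed between -0.13 and 0.077 in ttg1 and between -0.094 and 0.073 in Ler. PYK10 itself, which is BGLU23 by synonym and no member by symbol, had 0.012, -0.012, 0.14 and 0.29 in ttg1 and -0.73, -0.020, 0.033 and -0.095 in Ler, with a log2 change of 0.31 ± 0.16 (SE, adjusted p = 0.272 in limma). ATA27, the synonym of BGLU20, had a log2 change of -0.013 ± 0.075 (SE). Thus BGLU25 was lower in ttg1 while the log2 changes of BGLU24 and PYK10 were positive and those of BGLU19 and ATA27 near 0; the differences between these genes were not tested.

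The genes around lignin precursors were BGLU46 and BGLU47. BGLU46 (AT1G61820) cleaves glucosides of monolignols, and BGLU47 (AT4G21760) is its close relative. BGLU47 had 0.070, 0.016, 0.16 and 0.30 in ttg1 and -0.34, -0.22, -0.27 and -0.016 in Ler. All ttg1 arrays were above all Ler arrays, by a narrow margin set by ttg1 replicate 2 and Ler replicate 4, and the log2 change was 0.35 ± 0.098 (SE) with an adjusted p of 0.0665 in limma. This gene lay near the threshold. In limma the adjusted p was 0.0419 with quantile normalization of the centred values and 0.0433 with array weights. The replicate block gave 0.0469 and the fit without Ler replicate 4 gave 0.0442, also in limma. BGLU47 did not pass in the other 7 runs that left out 1 array. There the adjusted p in limma reached 0.177 without Ler replicate 1 and 0.169 without Ler replicate 2. BGLU46 had 0.0029, -0.0029, 0.033 and -0.48 in ttg1 and 0.15, 0.27, -0.17 and -0.20 in Ler. Its ttg1 arrays 1 to 3 lay near 0, ttg1 replicate 4 was the lowest of all, and the log2 change was -0.13 ± 0.14 (SE).

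Among genes that act on defence compounds and flavonoids, BGLU15 (AT2G44450), which hydrolyses flavonol glycosides, had -0.16, -0.083, 0.15 and -0.99 in ttg1 and 0.25, 0.095, -0.030 and 0.030 in Ler. One array, ttg1 replicate 4, was far below the other 7, and the log2 change of -0.36 ± 0.21 (SE) was -0.12 without it. BGLU28 (AT2G44460), an enzyme of glucosinolate breakdown under sulphur shortage, had -0.36, -0.071, 0.38 and -0.89 in ttg1 and 0.51, 0.27, -0.55 and 0.071 in Ler. Both genotypes were widely spread, and its log2 change of -0.31 ± 0.27 (SE) had a 95% interval from -0.91 to 0.29, the widest of the members. BGLU36 (AT1G51490), which belongs by sequence to the myrosinase group, had a log2 change of 0.11 ± 0.12 (SE).

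BGLU33 (AT2G32860), which releases abscisic acid from its glucose ester in the vacuole, was among the steadiest members. Centred values do not show whether its signal stood above background. Its values were 0.010, -0.072, -0.10 and -0.010 in ttg1 and 0.047, -0.049, 0.067 and 0.015 in Ler. No array was more than about 0.10 from 0, and the log2 change was -0.064 ± 0.074 (SE) with a 95% interval from -0.23 to 0.10. BGLU42 (AT5G36890), known from roots for coumarin release and induced resistance, had 0.27, -0.038, -0.0089 and -0.064 in ttg1 and 0.0089, -0.023, 0.14 and 0.029 in Ler. The log2 change of -0.0012 ± 0.094 (SE) was the closest to 0 of the 47 members. Apart from BGLU31 and BGLU32, which lie near TTG1, the other BGLU members were BGLU40 (-0.20 ± 0.12), BGLU43 (-0.072 ± 0.091), BGLU27 (0.033 ± 0.088), BGLU16 (0.034 ± 0.088), BGLU29 (0.085 ± 0.15) and BGLU41 (0.11 ± 0.13, SE). Of the 17 BGLU members that did not pass, 8 had a log2 change above 0 and 9 below 0, and the adjusted p-values in limma ran from 0.0665 to 0.996.

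**Figure D3:**
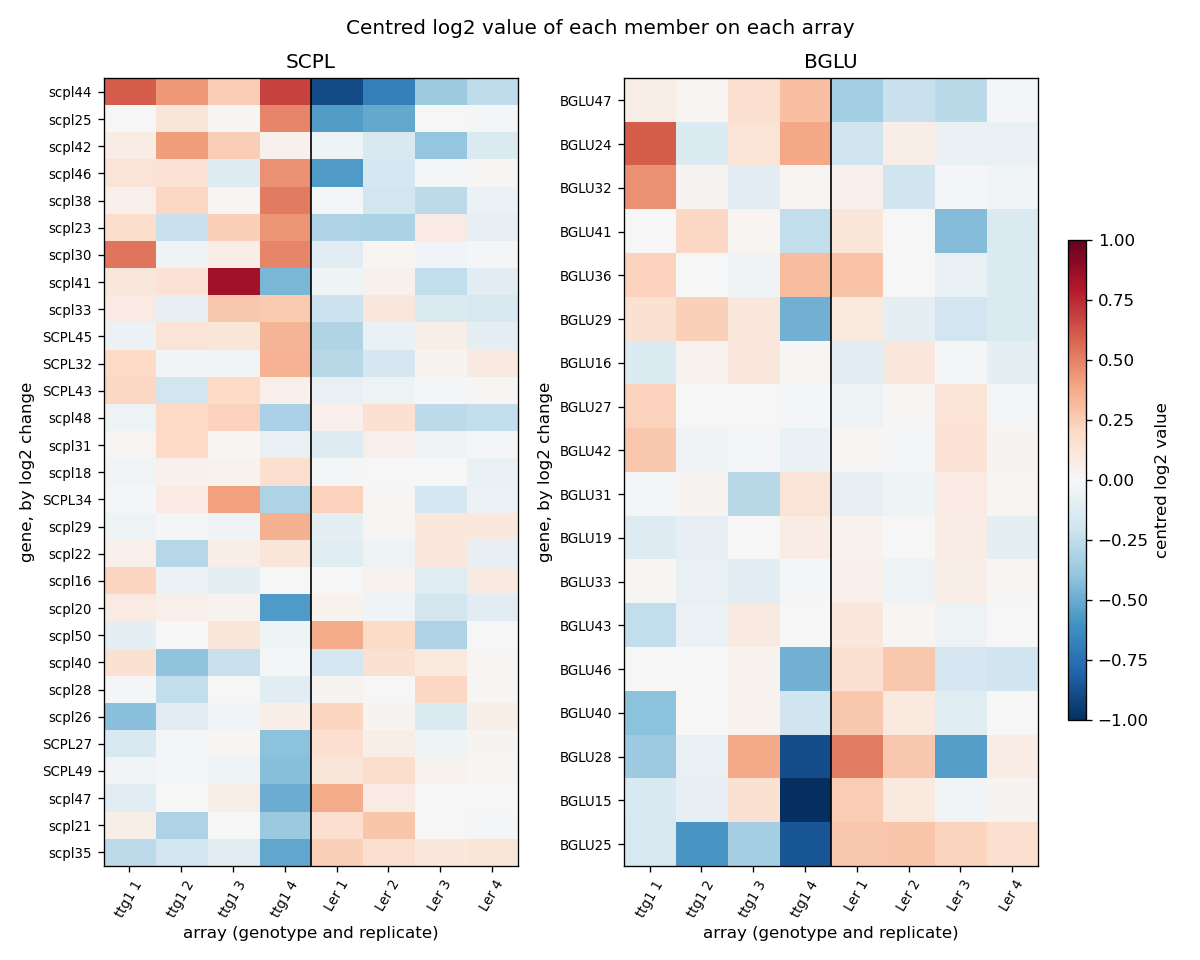
Centred log2 value of each of the 47 genes on each array, genes ordered by log2 change within each family, with the 4 ttg1 arrays left of the black line and the 4 Ler arrays right of it. Red is above and blue below the median of the 8 arrays; the strongest colours apart from scpl44 lie in ttg1 columns, for example BGLU15 at -0.99 in ttg1 replicate 4 and scpl41 at 0.84 in ttg1 replicate 3.

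Side by side, the median log2 change was 0.071 over 29 SCPL members, -0.015 over 18 BGLU members and 0.025 over all probe sets. The change was above 0 in 65.5% of the SCPL members, 44.4% of the BGLU members and 55.6% of all probe sets. The sign of the BGLU median was not settled, being 0.0063 without ttg1 replicate 3, 0.014 without ttg1 replicate 4 and 0.0034 without Ler replicate 3. The SCPL median was above 0 in all 15 refits, between 0.049 and 0.118, and was 0.115 without ttg1 replicate 4. The replicate block, robust eBayes and values per gene could not alter any member's change, so those refits add nothing on the sign. The median absolute change was 0.21 for SCPL, 0.11 for BGLU and 0.13 for all probe sets. On single arrays the SCPL median was 0.048, -0.0097, 0.032 and 0.046 in ttg1 and -0.045, 0.015, -0.014 and -0.017 in Ler. That of BGLU was 0.0042, -0.00068, 0.026 and -0.014 in ttg1 and 0.073, 0.0037, -0.040 and -0.015 in Ler. The ranges of the 2 genotypes overlapped in both families. No test of the families against each other was made.

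**Figure D4:**
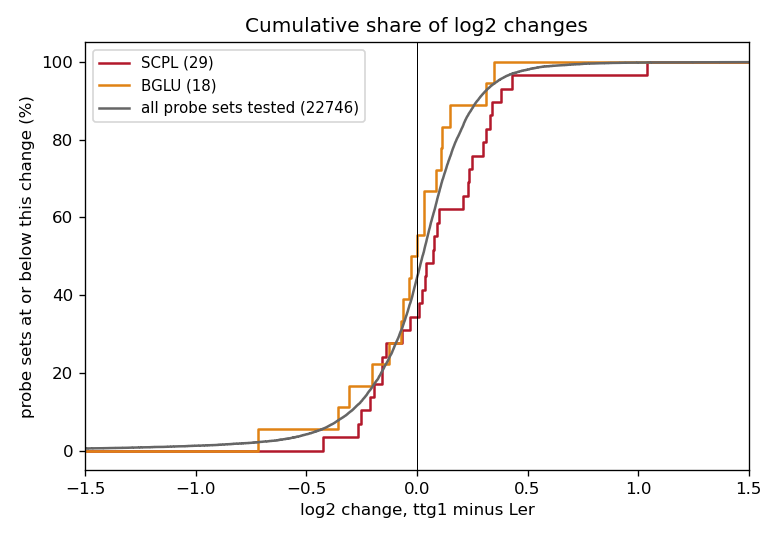
Cumulative share of probe sets (percent) at or below each log2 change, ttg1 minus Ler, for the 29 SCPL members, the 18 BGLU members and all 22746 probe sets tested. The axis leaves out the largest changes of other genes. The SCPL curve runs to the right of that of all probe sets over most positive changes, and the BGLU curve stays close to it; the median changes are 0.071, -0.015 and 0.025.

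Counted by overlap alone, the genotypes were fully separated in 9 of 47 members (19.1%), against 14.8% of all probe sets. The ttg1 arrays lay above in scpl44, scpl25, scpl42, scpl38 and BGLU47, against 6.51% of all probe sets, and below in scpl35, SCPL49, scpl28 and BGLU25, against 8.33%. This is 24.1% of the SCPL and 11.1% of the BGLU members. The array farthest from 0 was ttg1 replicate 4 in 19 of 47 members, 13 SCPL and 6 BGLU, and in 33.6% of all probe sets.

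Several members are neighbours on a chromosome, by gene order in RefSeq assembly TAIR10.1. BGLU15, BGLU28 and BGLU29 follow each other directly; the first 2 had log2 changes of -0.36 and -0.31 and BGLU29 had 0.085. All 3 were lowest in ttg1 replicate 4 among the 8 arrays, at -0.99, -0.89 and -0.48. scpl28 and scpl26 are adjacent, with -0.16 for both, and BGLU27 and BGLU16 are adjacent, with 0.033 and 0.034. The adjacent scpl22 and scpl23 had 0.021 and 0.31. scpl41 and scpl42, with 2 protein-coding genes between them, had 0.25 and 0.38. None of these genes passed the test in the unweighted limma fit without covariates; scpl42 passed with array weights.

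BGLU31 and BGLU32 lie beside the mutated gene itself, with 1 and 2 protein-coding genes between them and TTG1. BGLU31 (AT5G24540) had -0.019, 0.029, -0.28 and 0.13 in ttg1 and -0.084, -0.040, 0.078 and 0.019 in Ler. BGLU32 (AT5G24550) had 0.46, 0.030, -0.11 and 0.020 in ttg1 and 0.048, -0.20, -0.020 and -0.028 in Ler. In both genes the genotypes overlapped, and the 95% interval of the log2 change ran from -0.25 to 0.19 for BGLU31 and from -0.12 to 0.42 for BGLU32. The adjusted p in limma was 0.893 for BGLU31 and 0.491 for BGLU32.

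Probe sets that the annotation gives to several genes were kept apart and did not pass. The one shared by BGLU21 and BGLU22, root enzymes that cleave the coumarin glucoside scopolin, had a log2 change of 0.095 ± 0.096 (SE). The one shared by scpl36 and scpl37 had 0.26 ± 0.16 and the one shared by scpl39 and AT3G56540 had -0.020 ± 0.074 (SE).

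Genes that work beside these enzymes were followed in 4 lists. In sinapate ester synthesis, 4 of 18 genes were measured by name and none was higher or lower in limma (2 of the 4, HCT and UGT84A3, had an unadjusted p under 0.05, against 23% of all probe sets). HCT, a hydroxycinnamoyltransferase of the phenylpropanoid pathway, had -0.18, -0.017, -0.21 and -0.068 in ttg1 and 0.20, 0.12, 0.33 and 0.017 in Ler, with a log2 change of -0.28 ± 0.091 (SE, adjusted p = 0.0997 in limma). Its groups did not overlap. UGT84A3, which makes glucose esters of hydroxycinnamic acids, had a log2 change of -0.35 ± 0.13 (SE, adjusted p = 0.149 in limma). The other 2 genes were REF1, the aldehyde dehydrogenase that forms sinapic and ferulic acid, with a log2 change of -0.21 ± 0.10, and the glucosyltransferase UGT84A1, with 0.11 ± 0.14 (SE). The list's median was -0.25, against 0.025 over all probe sets.

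In glucosinolate breakdown and ER bodies 4 of 24 genes were measured, PYK10, BGLU28, NAI1 and NAI2, with a median log2 change of 0.012. None was higher or lower in limma, and none had an unadjusted p under 0.05. In abscisic acid metabolism 3 of 14 were measured, BGLU33 and the glucosyltransferases UGT71B6 (-0.055 ± 0.11) and UGT71C5 (-0.086 ± 0.099, SE), with none higher or lower in limma and none with an unadjusted p under 0.05. In flavonoid glycosylation and acylation 9 of 19 were measured, of which DFR and BAN were lower in limma, against 3.96% of all probe sets. DFR was 127-fold lower and BAN, the anthocyanidin reductase, 86-fold lower in ttg1. The other 7 genes, all transferases that decorate anthocyanins or flavonols, did not pass. UGT75C1, the anthocyanin 5-O-glucosyltransferase, had the smallest adjusted p of these except DFR and BAN (log2 change -0.35 ± 0.15, SE; adjusted p = 0.192 in limma).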

How the data were processed

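Per the submitters' processing notes the authors used RMA, with no version given, and its values were taken as log2. RMA corrects background, quantile normalizes arrays and summarises probes. In the deposited log2 table the 8 values of each probe set have their median at 0 (within 5e-07), so levels and signal over background are unknown; the centring step is not given in the sources used here. Genes were named from the platform annotation, and all 47 members matched RefSeq TAIR10.1 by gene ID. Of 22810 probe sets, 64 controls were left out. The members, gene lists and tests were chosen with earlier results of these data known. The difference ttg1 minus Ler was fitted over 22746 probe sets by lmFit and eBayes of limma 3.58.1 (R 4.3.3; no covariates, two-sided), adjusted by Benjamini-Hochberg, after the step was tested on simulated data. Named members were those past 0.05, the 3 largest rises and falls per family and those on the pathway lists; in each list, genes past the threshold or the 2 smallest adjusted p; others were named for their role or position after their values were seen. Alternatives were a replicate block, quantile normalization of the centred values, array centring, robust eBayes, array weights and a threshold of 0.01. Others were values per gene, added several-gene probe sets and the omission of arrays.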

Additional observations from a re-analysis of the deposited data

Results flagged for a closer look

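In 7 of 94 groups of 4 arrays (47 members in each genotype) 1 array lay far from the other 3, by Dixon's ratio of the gap to the range. The rule is set to flag about 1 in 20 such groups when values are independent and normally distributed. The 94 groups share the same arrays, so they are not independent. The share of all probe sets flagged by this rule was not counted. The 7 groups therefore cannot show whether the members held more such arrays than other genes. In 4 of the 7 the array was ttg1 replicate 4: scpl20 had -0.57 there against 0.034 to 0.081 in the other ttg1 arrays, SCPL49 had -0.42 against -0.049 to -0.013, BGLU46 had -0.48 against -0.0029 to 0.033, and scpl29 had 0.36 against -0.047 to -0.0097. Without that array scpl20 had a log2 change of 0.13, SCPL49 of -0.12, BGLU46 of -0.0031 and scpl29 of -0.063. In ttg1 replicate 1 BGLU27 had 0.23 against -0.018 to 0.0047, and BGLU42 had 0.27 against -0.064 to -0.0089. In Ler replicate 3 scpl28 had 0.21 against 0.0069 to 0.024. None of these genes passed the test with or without any single array.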

How the results depend on the processing

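Of the members, scpl44 and BGLU25 passed the adjusted p of 0.05 in all 15 refits, with log2 changes of 0.92 to 1.24 and -0.82 to -0.59. scpl35 passed in 9, BGLU47 in 4, scpl42 in 1, and the other 42 members in none. The sign was the same in all 15 for 35 members, and the other 12 had changes of at most 0.31 in size. In the refits with the replicate block, robust eBayes and values per gene the sign could not change. The count of BGLU members past the test was 2 with quantile normalization, with array weights and with the replicate block, where BGLU47 joined. It was 0 at a threshold of 0.01 on the adjusted p of limma. At an unadjusted p under 0.05 in limma there were 2 of 18 BGLU and 8 of 29 SCPL members, against 23% of all probe sets. The count of SCPL members was 3 with array weights and 1 at a threshold of 0.01. Leaving out 1 array gave 1 to 2 SCPL members, 1 to 2 BGLU members, 673 to 1184 probe sets in all, an SCPL median of 0.049 to 0.115 and a BGLU median of -0.030 to 0.014. The count over all probe sets was 768, 673 and 738 without Ler replicates 1, 2 and 3. Without replicate 4 of both genotypes, added after seeing the data, 1 SCPL and 1 BGLU member passed and the SCPL median was 0.118. Over all probe sets 1970 passed with the replicate block, 526 at 0.01 and 700 genes with values per gene, where fewer features were tested. By their labels, same-numbered arrays share only a number. The correlations of their within-group deviations were 0.077, 0.032, -0.31 and 0.48 for replicates 1 to 4. The 0.48 of replicate 4 was the highest of any ttg1 array with any Ler array. The lowest was -0.58, for ttg1 replicate 4 with Ler replicate 1. Whether same-numbered arrays had more in common than the number was not tested. With the block scpl35, scpl44 and BGLU25 still passed. The filter on dim probe sets was not run, since centred values hold no level. Where no value shows it, the cause was not tested. The 4 arrays per genotype limit the precision, the widest interval being that of BGLU28 (-0.91 to 0.29).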
